A study of Homo sapiens with 7 samples.

Results

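The libraries described here are those of the late phase of a light time course: 600 and 720 min of illumination, set against the library of 240 min, with the library of 0 min as the reference level. They are 3 of the 7 libraries of the series, plus the 0 min library. Genes with at least 20 transcript counts in at least 1 of the 240, 600 and 720 min libraries were examined, which kept 12940 of the 18690 genes named in the complete tables and left 5750 under the minimum. There were 63 genes whose highest count was 20 and 74 whose highest count was 19. The 240 min library alone let in 254 of the 12940 genes and a late library alone let in 433; such genes had to differ in that direction.

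The cells are H4, an established human neuroglioma line, and every group, the unlit one included, carries the opto-PKR fusion Cry2Olig-PKR. Cry2Olig is a plant photoreceptor variant that clusters in blue light, and PKR, the product of EIF2AK2, is a kinase that is switched on when its copies come together. Cells in fibronectin-coated glass-bottom wells were lit without a break by an optoPlate, a multiwell array of light-emitting diodes, for 0, 240, 600 or 720 min and lysed at once. RNA was measured with an adaptation of CEL-Seq2, which counts 3′ ends of transcripts by unique molecular identifiers (UMIs). Whether the line is 1 clone, and how much fusion protein it makes, the sources used here do not give. Lit cells without the fusion, and cells kept dark for the same times, were not analysed here, so the light, the kinase and the hours in the plate cannot be told apart. The light stayed on throughout, so a gene that went back towards its 0 min level did so under illumination. There was 1 library per time, so no difference below has a replicate check.

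As background, PKR phosphorylates the initiation factor eIF2, which lowers general protein synthesis and starts the integrated stress response (ISR). Translation of a few messages, among them ATF4, rises under these conditions, and the ATF4 protein, with partners of the C/EBP family, switches on genes for amino acid supply, for feedback on eIF2 and, when stress lasts, for cell death. PPP1R15A (GADD34) closes the feedback loop by bringing a phosphatase to eIF2. PKR and a block of translation are also known to set off NF-kB and mitogen-activated protein kinase signalling, whose early targets encode short-lived messages.

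The 4 libraries held 7918427 to 8911818 transcript counts and 2.32 to 2.38 reads per UMI, and 28 to 42 genes in each had over 3800 UMIs, where the correction for UMI collisions is steep. Of the markers of the labelled cell type, VIM stood between 686 and 811 CPM (the transcript count over the scaled library total) and CD44 between 498 and 653 CPM, whereas GFAP and S100B had 0 counts in all 4 libraries and AQP4 at most 1. NES had 14 counts at 0 min, then 2, 2 and 3. In the order 0, 240, 600 and 720 min, OLIG2 had 5.04, 17.8, 20.4 and 18.2 CPM. In that order SOX2 had 35.8, 38.2, 15.9 and 27.5 CPM, and SLC1A3 8.31, 16, 11.3 and 10.2. SOX9 had 44.1, 61.8, 47 and 50.6 CPM. Markers of other cell types were mixed. Of the immune ones, CD3E had 0 counts and PTPRC 2 or 3, while CD68 had 45 to 69 and LYZ 14 to 50. The endothelial CDH5 was at 0, VWF at 0 to 2 and PECAM1 at 1 to 7 counts. Of the epithelial ones, EPCAM, CDH1 and KRT5 had 0 to 2 counts, but KRT8 had 115 to 195 and KRT18 872 to 1515, both higher late than at 240 min. Of the neuronal ones, STMN2 was at 0 and RBFOX3 at 1 to 5 counts, while TUBB3 had 1724 to 2766 counts, SYT1 went from 387 at 0 min and 586 at 240 min to 781 and 635, and SNAP25 from 51 and 25 to 13 and 3. The part of other cell types in the results was not tested.

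Short stretches of promoters are shown first, because genes that share a motif end up in different places below. They are taken from RefSeq on GRCh38.p14, in the direction of the gene, from the 250 bases before the annotated start; the authors' counts were made on hg19, so no position is taken from them. Capitals mark a match to the C/EBP-ATF composite motif TGATGNAA, to the NF-kB consensus or to the CArG box, each searched on both strands. A further NF-kB match in TNFAIP3, another that overlaps the marked one in CXCL2 and a further CArG box in EGR1 are not marked. A match is a description of letters, not of a bound factor. In the reference table the composite motif is in 3.62% of 35116 promoters, the NF-kB consensus in 5.91% and the CArG box in 1.29%. Promoters were found for 78.3% of the genes examined, which is too few to compare the shares of motifs between groups of genes, and that comparison is void. The stretches are as follows, with the composite motif in CHAC1 (chr15:40953242-40953289), FGF21 (chr19:48755450-48755497), ASNS (chr7:97872449-97872496, minus strand) and ATF3 (chr1:212565196-212565243), the NF-kB consensus in TNFAIP3 (chr6:137867172-137867221), CCL20 (chr2:227813743-227813792), IL6 (chr7:22727107-22727156) and CXCL2 (chr4:74099244-74099293, minus strand), and the CArG box in EGR1 (chr5:138465354-138465403).
CHAC1: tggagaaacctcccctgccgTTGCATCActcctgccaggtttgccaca
FGF21: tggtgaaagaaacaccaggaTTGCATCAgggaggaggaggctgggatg
ATF3: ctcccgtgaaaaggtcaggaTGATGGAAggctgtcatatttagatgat
ASNS: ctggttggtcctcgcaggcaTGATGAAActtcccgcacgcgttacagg
TNFAIP3: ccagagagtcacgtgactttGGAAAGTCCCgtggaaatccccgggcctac
CCL20: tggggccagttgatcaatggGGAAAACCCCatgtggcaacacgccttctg
IL6: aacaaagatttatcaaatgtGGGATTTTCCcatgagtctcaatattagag
CXCL2: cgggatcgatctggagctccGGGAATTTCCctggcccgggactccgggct
EGR1: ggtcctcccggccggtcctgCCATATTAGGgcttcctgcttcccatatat
The genes shown with the composite motif went different ways: CHAC1 held, FGF21 and ASNS were higher late than at 240 min, and ATF3 came part of the way down. Of the named genes not shown that also hold it, S100P was further and KRTAP4-8 returned. Of the 4 genes shown with the NF-kB consensus, TNFAIP3 and CCL20 returned, IL6 went part of the way and CXCL2 did not come down. These genes were picked, so they do not show how often genes with a motif take each course.

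The late libraries were closer to 0 min than the 240 min library was. The median absolute log2 ratio to 0 min over the 12940 genes was 0.482 at 240 min, 0.364 at 600 and 0.33 at 720 min. At 240 min 1353 genes (10.5%) were at least 2-fold above the 0 min level with a counting interval that excluded 1, and 811 (6.27%) were at least 2-fold below. At 600 min these counts were 862 and 579 and at 720 min 752 and 563. The same medians between times were 0.342 for 600 against 240 min, 0.462 for 720 against 240 min and 0.224 for 720 against 600 min. These medians over all genes include counting error, so they do not measure how much of the distance was left. The genes above 0 min at 240 min had a median of 54.8% of their log2 distance left at 600 min and 33.3% at 720 min, and those below had 55.8% and 29.5%. Both distances use the 0 and 240 min libraries, and the genes were picked for a large value at 240 min, so these shares are a description without a test.

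**Figure D1:**
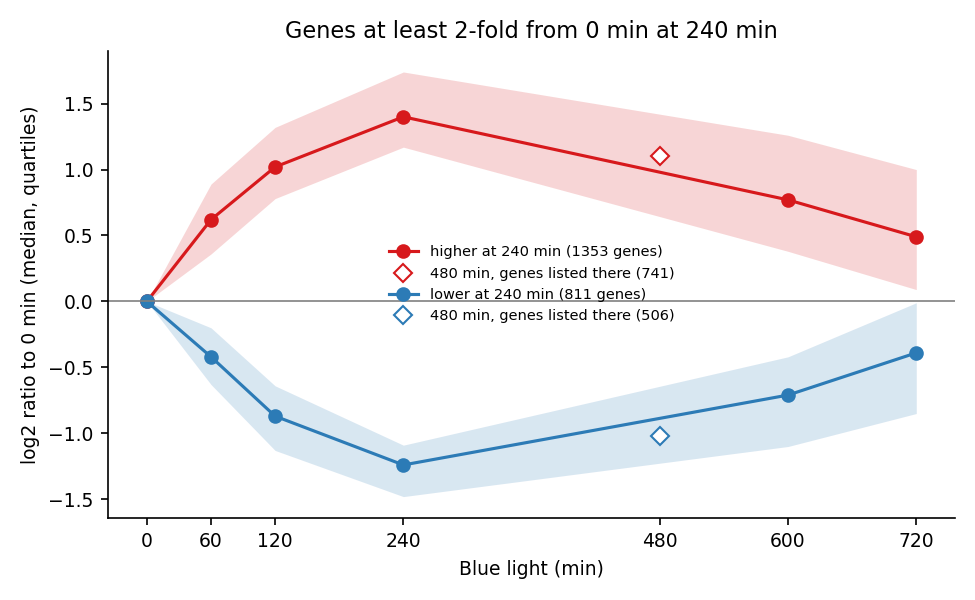
Median log2 ratio to 0 min (y axis) against minutes of blue light (x axis) for the 1353 genes at least 2-fold above and the 811 genes at least 2-fold below the 0 min level at 240 min; shading spans the quartiles, and open diamonds at 480 min cover the 741 and 506 of them that the table of that time lists. The medians go from 1.40 and -1.24 at 240 min to 0.49 and -0.39 at 720 min.

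Late libraries were then set against 240 min directly. A gene was counted as lower or higher late if its log2 ratio to 240 min was at least 1 in size in both late libraries and both exact binomial 95% intervals excluded 1; the intervals cover counting error only. There were 552 genes lower late (4.27% of those examined) and 356 higher (2.75%). Taken alone, the 600 min library gave 670 lower and 444 higher, and the 720 min library 1154 and 913. Of the 552, 340 had been above the 0 min level at 240 min, 11 below and 201 within 2-fold of it or within counting error; of the 356 the numbers were 34, 116 and 206. So 201 genes lower late and 206 higher late were not called 2-fold from 0 min at 240 min. All 201 and 199 of the 206 were within 2-fold of it by their values, and these are called late arrivals. The name rests on the 240 min library alone. Some had moved before that time, such as C10orf10, with 17.6 CPM at 0 min, 64.4 at 120 min and 25.9 at 240 min.

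A test with edgeR's quasi-likelihood method, in which the 600 and 720 min libraries form 1 late group, called 1338 genes lower late (10.3%) and 1003 higher (7.75%) at a Benjamini-Hochberg adjusted p under 0.05. Its only residual degree of freedom is the difference between 600 and 720 min, which are different times and not replicates, so its p measures the late change against that difference, with the spread shared across genes. The words fell and rose below are used of genes that passed this test, and values given for the 4 times, or for the late libraries, are in the order 0, 240, 600 and 720 min. The test called 524 of the 552 genes that were 2-fold lower in both late libraries and 322 of the 356 that were higher. It uses the same counts as the 2-fold rule, so this overlap is no separate support. List counts by this test are to be read against the 10.3% and 7.75% of all genes.

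Each of the 2164 genes that stood 2-fold from 0 min at 240 min was then placed by what was left of that log2 distance in the mean of 600 and 720 min. A gene was called returned at up to 25% left, part way at 25 to 75%, held from there to an equal margin beyond 100%, further above that and overshot if it lay at least 2-fold on the other side of the 0 min level. Returned thus includes genes past the 0 min level by less than 2-fold, such as EGR1 with -44.97% left. Of the 1353 genes above 0 min, 397 returned (29.3%), 634 were part way (46.9%), 217 held (16%), 91 were further and 14 overshot. Of the 811 below, 247 returned (30.5%), 364 were part way (44.9%), 16.4% held, 60 were further and 7 overshot. These places rest on a mean of 2 different times: of the genes above, each late library taken alone gave the same place for 253 of the 397 returned and 354 of the 634 part way, and of those below for 109 of 247 and 162 of 364. Held and further genes together made up 22.8% of the first set and 23.8% of the second, and overshot genes 1.03% and 0.863%.

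**Figure D2:**
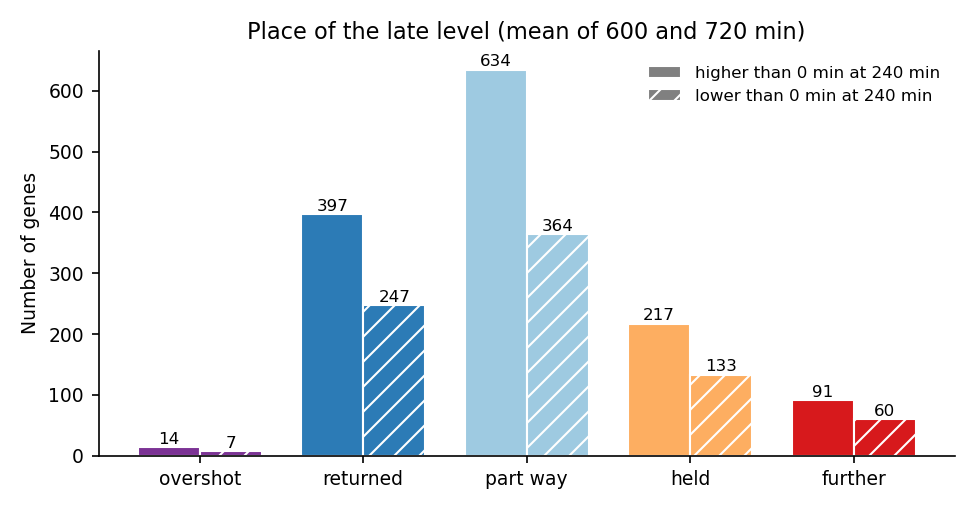
Number of genes (y axis) by the place of their late level (x axis), for genes above (plain bars) and below (hatched bars) the 0 min level at 240 min. The part-way class is the tallest on both sides, with 634 and 364 genes, and the overshot class the shortest, with 14 and 7.

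**Figure D3:**
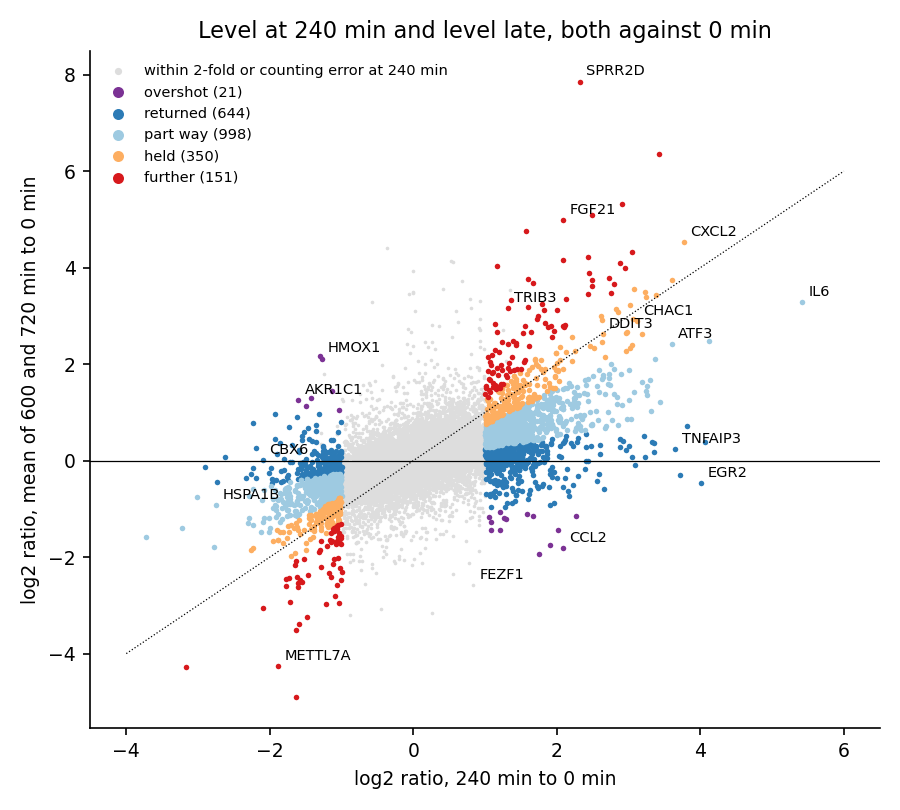
Log2 ratio to 0 min at 240 min (x axis) and in the mean of 600 and 720 min (y axis), 1 point per gene, coloured by place. The dotted diagonal marks an unmoved level and the horizontal line the 0 min level; CCL2 lies below that line, CHAC1 and DDIT3 near the diagonal, and SPRR2D far above it.

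Immediate early genes, the transcription factors and phosphatases that answer a stimulus before new protein is made, included many that fell. Of 26 listed, 24 were examined, 11 were at least 2-fold lower in both late libraries and 17 fell by the edgeR test, with 0 higher by either. Of all genes examined, 4.27% were 2-fold lower and 10.3% fell. The list's median distance from 0 min was 1.99 on the log2 scale at 240 min, 0.41 at 600 and 0.34 at 720 min. The median late ratio to 240 min was -1.10, against 0.00 over all genes examined. For 5 low members, FOS, FOSB, EGR2, EGR3 and NR4A3, only the 240 min library reached the count minimum, so these could only be lower late. Without these 5, 6 of 19 were 2-fold lower and 12 of 19 fell. The medians above include these 5 and were not recomputed without them, so they are descriptions only.

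EGR2, a zinc finger factor of growth factor signalling, had 1.29 CPM at 0 min and 24.4 at 240 min, then 0.799 at 600 and 0.931 at 720 min. The late libraries held 7 counts each, against 11 in the 0 min library, and their ratios to it were 0.62 (0.204 to 1.75) and 0.723 (0.238 to 2.04), with 95% counting intervals in parentheses. EGR1, a related factor whose promoter is shown above with a CArG box, measured 26.5, 104, 13.3 and 15.2 CPM at the 4 times. EGR1 fell by 2.87 on the log2 scale (SE 0.26, edgeR adjusted p = 6.99e-11). FOS, the partner of JUN in the AP-1 complex, went from 4.33 CPM in the unlit library to 18.2 at 240 min and was at 1.6 and 1.3 in the late libraries. Both late levels of FOS lay under that of 0 min, at 14 and 10 counts against 37. At 120 min EGR2, EGR1 and FOS had stood at 56.35, 257.7 and 47.1 CPM, above their 240 min levels. So 240 min was not the high point of these genes. No p is given for EGR2 and FOS, which the 240 min library alone let in. JUN was at 59.1 CPM before light, 314 at 240 min, 66.7 by 600 min and 77.6 by 720 min, so that 11.7% of its log2 distance at 240 min was left. JUNB had 28.8 CPM at 0 min and 126 at 240 min, then 20.9 at 600 and 23.9 at 720 min, and its late libraries lay slightly below that of 0 min. Among the Krüppel-like factors, KLF6 measured 44.3, 271, 59.7 and 51.4 CPM at the 4 times, and KLF10, an early target of transforming growth factor signalling, went from 39.7 CPM in the unlit library to 396 at 240 min and was at 95.7 and 68.8 in the late libraries. KLF6 returned, with 12.3% left, and KLF10 was part way, with 31%. MYC, a growth regulator, was at 2.93 CPM before light, 14.7 at 240 min, 7.53 by 600 min and 6.92 by 720 min. MYC fell by 1.02 on the log2 scale (SE 0.33, edgeR adjusted p = 0.0276), so it stayed above its 0 min level.

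Not every early gene came down. FOSL1, a FOS relative with a longer-lived message, had 170.5 CPM at 0 min and 272 at 240 min, then 301 at 600 and 334 at 720 min (edgeR log2 change from 240 min 0.22, SE 0.22, adjusted p = 0.509). KLF2 held, with 80.2% left (edgeR log2 change from 240 min -0.23, SE 0.28, adjusted p = 0.608), and the phosphatase gene DUSP5 measured 24.5, 38, 40.2 and 38.5 CPM at the 4 times. DUSP1, which removes phosphate from p38 and JNK, went from 14.2 CPM in the unlit library to 70.1 at 240 min and was at 29.8 and 17.3 in the late libraries. DUSP1 fell by 1.57 on the log2 scale (SE 0.28, edgeR adjusted p = 6.61e-05). DUSP8 and DUSP4, of the same family, were picked after their values were seen. DUSP8 went from 45.3 CPM at 240 min to 11.2 at 720 min and fell by 1.81 on the log2 scale (SE 0.28, edgeR adjusted p = 7.81e-06). DUSP4 went the other way, with 27.9, 15.4, 54.8 and 81.2 CPM at the 4 times, and rose by 2.14 on the log2 scale (SE 0.30, edgeR adjusted p = 1.72e-06). In all, 5 of the 19 dual-specificity phosphatase genes examined were 2-fold lower late and 1 was higher, against 4.27% and 2.75% of all genes.

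Cytokines and the feedback genes of NF-kB split. Of 23 listed, 18 were examined, 8 were 2-fold lower in both late libraries and 0 higher, and by the edgeR test 9 fell and 3 rose. Of all genes examined, 4.27% were 2-fold lower and 2.75% higher, and by the test 10.3% fell and 7.75% rose. Relative to 0 min the list's median log2 level was 2.76 at 240 min, 1.48 at 600 and 0.81 at 720 min. Of the 16 members that stood above 0 min at 240 min, 1 overshot, 5 returned, 6 were part way, 2 held and 2 were further.

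CCL2, the monocyte chemokine MCP-1, was at 89.5 CPM before light, 381 at 240 min, 27.6 by 600 min and 23 by 720 min. The ratio to 0 min was 0.309 (0.266 to 0.357) at 600 min and 0.257 (0.217 to 0.304) at 720 min. CCL2 fell by 3.91 on the log2 scale (SE 0.23, edgeR adjusted p = 9.15e-16). TNFAIP3, which encodes the deubiquitinase A20 and shuts off NF-kB signalling, had 6.44 CPM at 0 min and 83.6 at 240 min, then 10.5 at 600 and 5.59 at 720 min. TNFAIP3 fell by 3.36 on the log2 scale (SE 0.29, edgeR adjusted p = 4.02e-11). Its promoter stretch is shown above with the NF-kB consensus. NFKBIA, the inhibitor IkB-alpha, measured 45.8, 96.1, 23.7 and 31.9 CPM at the 4 times. NFKBIA fell by 1.79 on the log2 scale (SE 0.25, edgeR adjusted p = 1.28e-06), and both late levels were under that of 0 min. LIF, a cytokine of the IL6 family, went from 17.6 CPM in the unlit library to 143 at 240 min and was at 28.2 and 16.8 in the late libraries. LIF fell by 2.66 on the log2 scale (SE 0.26, edgeR adjusted p = 6.79e-10). CCL20, a chemokine for dendritic cells and lymphocytes, went from 193 counts at 240 min to 36 and 9, against 11 at 0 min, and fell by 2.95 on the log2 scale (SE 0.39, edgeR adjusted p = 5.69e-07).

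IL6 itself was part way. It was at 6.09 CPM before light, 271 at 240 min, 66.8 by 600 min and 56.1 by 720 min. IL6 fell by 2.14 on the log2 scale (SE 0.23, edgeR adjusted p = 4.2e-09), yet the late levels were still 11 (8.26 to 14.9) and 9.22 (6.9 to 12.6) times that of 0 min. IL24 had 2.11 CPM at 0 min and 40.5 at 240 min, then 20.8 at 600 and 7.85 at 720 min, and BIRC3, an inhibitor of apoptosis and NF-kB target, measured 29.6, 286, 101 and 57.5 CPM at the 4 times. Both fell, IL24 with an edgeR adjusted p of 0.00823 and BIRC3 with 4.15e-07. PTGS2, the inducible prostaglandin synthase, went from 16.5 CPM in the unlit library to 59.8 at 240 min and was at 26.5 and 15.7 in the late libraries. PTGS2 fell by 1.5 on the log2 scale (SE 0.28, edgeR adjusted p = 0.000149).

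The neutrophil chemokines did not come down. CXCL2 was at 9.25 CPM before light, 129.6 at 240 min, 209.8 by 600 min and 227 by 720 min. CXCL2 rose by 0.75 on the log2 scale (SE 0.23, edgeR adjusted p = 0.0214). CXCL3, a near relative encoded beside it, had 3.28 CPM at 0 min and 24.1 at 240 min, then 43 at 600 and 45.9 at 720 min. CXCL3 rose by 0.88 on the log2 scale (SE 0.28, edgeR adjusted p = 0.0262). These sequences are alike, and the treatment of reads matching both is unknown here. IL8 measured 29.98, 285, 342 and 295 CPM at the 4 times, with ratios to 240 min of 1.2 (1.14 to 1.26) and 1.04 (0.98 to 1.1) (edgeR log2 change from 240 min 0.16, SE 0.22, adjusted p = 0.65). IL1A, an interleukin released from damaged cells, went from 83 counts at 240 min to 205 and 117, against 10 at 0 min, and rose by 1.1 on the log2 scale (SE 0.34, edgeR adjusted p = 0.0203). So some messages of this list ended below the 0 min level (CCL2, NFKBIA), some lay between it and the 240 min level (IL6, IL24, BIRC3), and CXCL2, CXCL3 and IL1A ended above the 240 min level. CCL20 was above the 0 min level at 600 min and at about that level at 720 min.

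Besides FOS and CCL2, 12 genes overshot from above. PDE4B, a cyclic AMP phosphodiesterase, went from 17.2 CPM in the unlit library to 58.4 at 240 min and was at 6.62 and 2.79 in the late libraries. PDE4B fell by 3.61 on the log2 scale (SE 0.32, edgeR adjusted p = 4.61e-11). EFNA1, the ligand ephrin-A1, was at 13.1 CPM before light, 49.6 at 240 min, 3.77 by 600 min and 3.73 by 720 min. EFNA1 fell by 3.72 on the log2 scale (SE 0.30, edgeR adjusted p = 1.09e-11). CEBPD, a C/EBP factor of the acute phase response, had 36.8 CPM at 0 min and 90.7 at 240 min, then 15.6 at 600 and 15.8 at 720 min. CEBPD fell by 2.53 on the log2 scale (SE 0.26, edgeR adjusted p = 1.17e-09). These 3 genes had late levels well under that of 0 min in both libraries. E2F8, a repressor of the cell cycle, measured 12.7, 27, 5.25 and 4.92 CPM at the 4 times, and LPAR1, a receptor for lysophosphatidic acid, went from 17.2 CPM in the unlit library to 36.9 at 240 min and was at 9.24 and 4.12 in the late libraries. UBD, the ubiquitin-like modifier FAT10, was at 14.6 CPM before light, 71.4 at 240 min, 15.4 by 600 min and 2.66 by 720 min. Its late libraries differ, with 600 min near the 0 min level and 720 min far below, and it did not pass the edgeR test (adjusted p = 0.29). The rest were CLCN6, PPAP2B, TIAM2, BDKRB1, BMP4 and C11orf44, the last 2 with at most 30 counts in any of these libraries.

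Genes placed as returned, with up to 25% of their distance left, include several regulators. EDN1, the vasoconstrictor endothelin-1, had 14.2 CPM at 0 min and 148 at 240 min, then 19.9 at 600 and 16.9 at 720 min. EDN1 fell by 3.00 on the log2 scale (SE 0.25, edgeR adjusted p = 1.41e-11). GADD45B, a growth arrest gene of the p38 pathway, measured 15.2, 158, 19.1 and 15.7 CPM at the 4 times. GADD45B fell by 3.18 on the log2 scale (SE 0.25, edgeR adjusted p = 3.83e-12). BHLHE40, a repressor that acts in the circadian clock, went from 47.9 CPM in the unlit library to 283 at 240 min and was at 40.04 and 32.2 in the late libraries. BHLHE40 fell by 2.97 on the log2 scale (SE 0.23, edgeR adjusted p = 3.83e-12). SOCS3, which blocks signalling by IL6-type receptors, was at 68.3 CPM before light, 360.0 at 240 min, 57 by 600 min and 64.7 by 720 min. SOCS3 fell by 2.56 on the log2 scale (SE 0.22, edgeR adjusted p = 3.56e-11). IRF1, a transcription factor of the interferon response, had 90.2 CPM at 0 min and 320.2 at 240 min, then 89.3 at 600 and 86.2 at 720 min. IRF1 fell by 1.87 on the log2 scale (SE 0.22, edgeR adjusted p = 3.04e-08). Each of these 5 genes was between 3.55 (IRF1) and 10.4 (EDN1 and GADD45B) times the 0 min level at 240 min and within 2-fold of it in both late libraries.

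Some regulators of messenger RNA decay and of the clock also fell. Of 19 decay regulators examined, 6 fell by the edgeR test and 1 rose, where 10.3% of all genes fell and 7.75% rose. ZFP36L1, which binds AU-rich elements and hastens decay, measured 281, 875, 295 and 216 CPM at the 4 times. ZFP36L1 fell by 1.77 on the log2 scale (SE 0.21, edgeR adjusted p = 5.81e-08). ZFP36L2, its relative, went from 53.5 CPM in the unlit library to 129 at 240 min and was at 56.9 and 47.6 in the late libraries, while SMG5, of the nonsense-mediated decay machinery, rose by 0.86 on the log2 scale (SE 0.26, edgeR adjusted p = 0.0179). Of 15 clock genes examined, 5 fell and 0 rose: BHLHE40, BHLHE41, NR1D1, TEF and CRY1. NR1D1, the repressor REV-ERB-alpha, was at 11 CPM before light, 88.7 at 240 min, 26.1 by 600 min and 15.4 by 720 min. NR1D1 fell by 2.09 on the log2 scale (SE 0.27, edgeR adjusted p = 3.2e-07). The activator CLOCK had 119.8 CPM at 0 min and 149 at 240 min, then 129 at 600 and 126 at 720 min and the repressor PER2 measured 8.43, 21.1, 18.8 and 19.6 CPM at the 4 times, neither of which passed the test (edgeR adjusted p = 0.517 and 0.783).

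ISR regulators behaved otherwise. All 18 listed genes were examined, and 13 stood above 0 min at 240 min, where 10.5% of all genes did. Among the 13, 7 held, 4 were further, 2 were part way and 0 returned. Over the list, the median log2 distance from 0 min was 1.58 at 240 min, 2.12 at 600 and 2.08 at 720 min. By the edgeR test 6 rose and 2 fell between 240 min and the late libraries, where 7.75% of all genes rose and 10.3% fell. By the 2-fold rule 6 were higher and 0 lower, against 2.75% and 4.27% of all genes.

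ATF4, the central transcription factor, went from 309.6 CPM in the unlit library to 446 at 240 min and was at 554 and 624 in the late libraries (edgeR log2 change from 240 min 0.4, SE 0.22, adjusted p = 0.201). DDIT3, which encodes the pro-death factor CHOP, was at 15.2 CPM before light, 96 at 240 min, 95.4 by 600 min and 95.1 by 720 min. The late ratios of DDIT3 to 240 min were 0.993 (0.902 to 1.09) and 0.991 (0.896 to 1.09), with 95% counting intervals in parentheses. CHAC1, an enzyme that breaks down glutathione, had 49.2 CPM at 0 min and 428 at 240 min, then 308 at 600 and 435 at 720 min, with ratios to 240 min of 0.719 (0.684 to 0.755) and 1.02 (0.969 to 1.06). PPP1R15A, the feedback subunit that brings a phosphatase to eIF2, measured 50.7, 396, 293 and 342 CPM at the 4 times, with ratios to 240 min of 0.739 (0.702 to 0.778) and 0.863 (0.82 to 0.907). SESN2, a brake on the growth kinase mTORC1, went from 20.1 CPM in the unlit library to 125.2 at 240 min and was at 169 and 156 in the late libraries. DDIT4, another such brake, was at 111 CPM before light, 443 at 240 min, 425 by 600 min and 473 by 720 min. Neither these 5 held genes nor the held C/EBP partners CEBPB and CEBPG passed the edgeR test against 240 min (adjusted p between 0.274 and 0.977).

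Other ISR genes rose. TRIB3, a pseudokinase that restrains ATF4 and the kinase AKT, had 44.4 CPM at 0 min and 111 at 240 min, then 409 at 600 and 389 at 720 min. TRIB3 rose by 1.84 on the log2 scale (SE 0.24, edgeR adjusted p = 2.85e-07). NUPR1, a small stress-induced chromatin protein, measured 79.3, 186, 391 and 485 CPM at the 4 times. NUPR1 rose by 1.23 on the log2 scale (SE 0.23, edgeR adjusted p = 0.000176). FGF21, a hormone of fasting and stress, had 0 counts at 0 min, 7 at 240 min, then 62 and 55. Set against a floor of 3 counts in the 0 min library, FGF21 was at least 20.1-fold higher at 600 min and at least 20.8-fold at 720 min. A late library alone let FGF21 in, so it could only be higher than at 240 min; without it 5 of 17 ISR regulators rose. ATF5, a factor that, like ATF4, is translated under eIF2 phosphorylation, went from 171 CPM in the unlit library to 86.5 at 240 min and was at 344 and 474 in the late libraries. ATF5 rose by 2.24 on the log2 scale (SE 0.25, edgeR adjusted p = 1.53e-08). GDF15, a secreted stress cytokine, was at 327 CPM before light, 279 at 240 min, 886 by 600 min and 1037 by 720 min. GDF15 rose by 1.79 on the log2 scale (SE 0.24, edgeR adjusted p = 4.17e-07). EIF4EBP1, a repressor of cap-dependent translation, had 60.3 CPM at 0 min and 65.1 at 240 min, then 140.1 at 600 and 194 at 720 min. EIF4EBP1 rose by 1.36 on the log2 scale (SE 0.26, edgeR adjusted p = 0.000192). ATF5 and GDF15 were thus below their 0 min level at 240 min, and above it late.

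ATF3 and PPP1R15B were the ISR regulators that fell. ATF3, a factor shared by the ISR and the early response lists, measured 27.2, 333, 188 and 114 CPM at the 4 times. ATF3 fell by 1.14 on the log2 scale (SE 0.23, edgeR adjusted p = 0.000583). PPP1R15B, the constitutive eIF2 phosphatase subunit, went from 40.6 CPM in the unlit library to 128 at 240 min and was at 74 and 59.6 in the late libraries. PPP1R15B fell by 0.94 on the log2 scale (SE 0.24, edgeR adjusted p = 0.00501). EIF2AK2, the gene of PKR, was at 187 CPM before light, 65.6 at 240 min, 123 by 600 min and 130.5 by 720 min. EIF2AK2 rose by 0.95 on the log2 scale (SE 0.24, edgeR adjusted p = 0.00522), with 37.2% of its loss left. Counts of EIF2AK2 from the native gene and from the introduced fusion cannot be told apart.

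**Figure D4:**
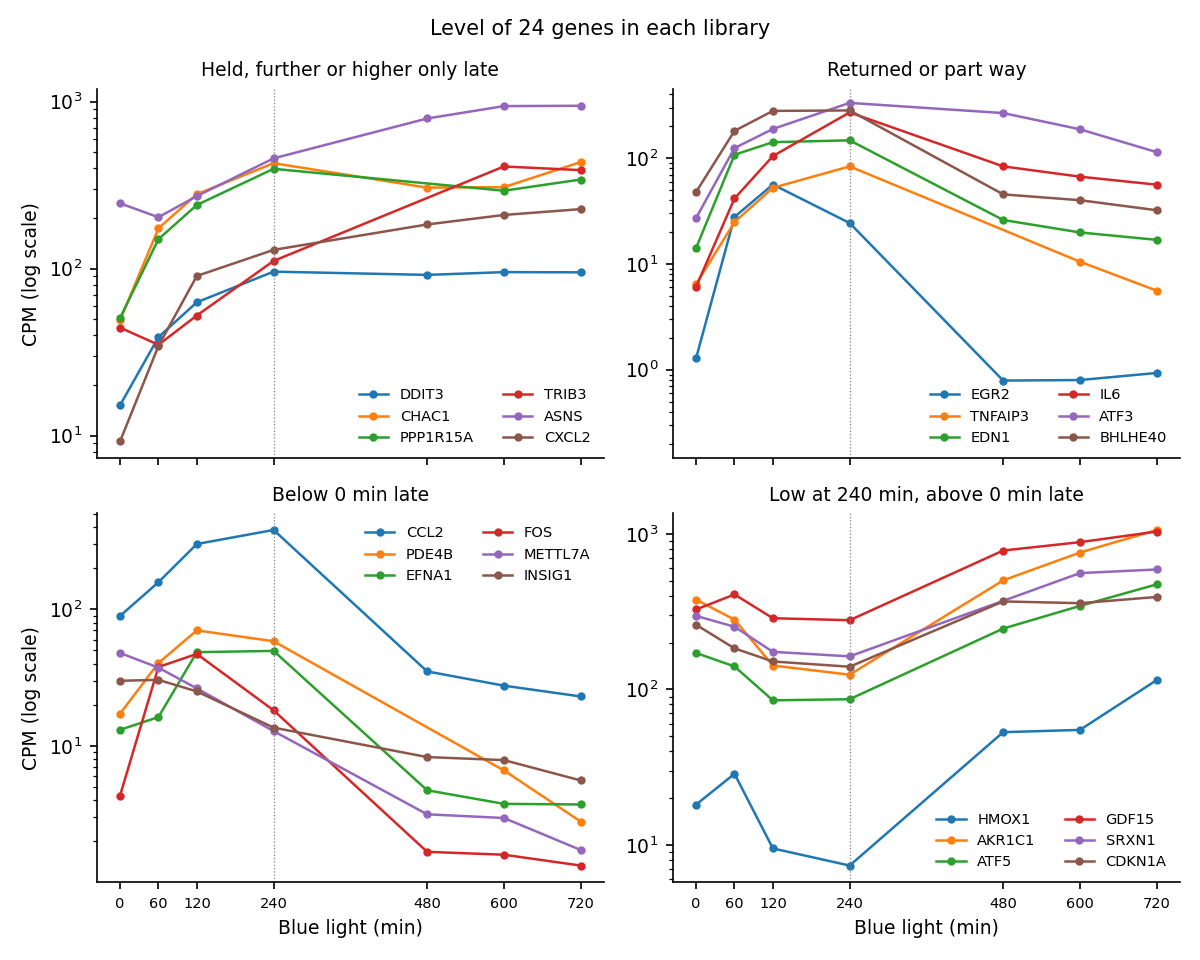
CPM (log scale, y axis) against minutes of blue light (x axis) for 24 genes, 1 point per library and the dotted line at 240 min; genes named after the end of the incomplete 480 min table have no point there. DDIT3 stays near 96 CPM from 240 min on, EGR2 and TNFAIP3 come back to their 0 min levels, CCL2 and FOS end under theirs, and HMOX1 and AKR1C1 go from below to above it.

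Part of the amino acid supply list rose. Of 22 listed, 21 were examined, 9 rose by the edgeR test and 0 fell, and 4 were 2-fold higher in both late libraries. Of all genes examined, 7.75% rose and 2.75% were 2-fold higher. The list's median late ratio to 240 min was 0.55 on the log2 scale. ASNS, asparagine synthetase, had 246 CPM at 0 min and 458 at 240 min, then 941 at 600 and 945 at 720 min. ASNS rose by 1.04 on the log2 scale (SE 0.22, edgeR adjusted p = 0.000961). SLC6A9, a glycine transporter, measured 26.8, 82, 247 and 247 CPM at the 4 times. SLC6A9 rose by 1.59 on the log2 scale (SE 0.24, edgeR adjusted p = 7.16e-06). PYCR1, the last enzyme of proline synthesis, went from 121 CPM in the unlit library to 94.2 at 240 min and was at 246 and 288 in the late libraries. PYCR1 rose by 1.5 on the log2 scale (SE 0.24, edgeR adjusted p = 1.54e-05). PYCR1 had been slightly below 0 min at 240 min, ASNS was less than 2-fold above it, and SLC6A9 was already more than 2-fold above. ALDH1L2, a mitochondrial folate enzyme, was at 4.92 CPM before light, 17.9 at 240 min, 45.9 by 600 min and 44 by 720 min, and SHMT2, of the same pathway, had 127 CPM at 0 min and 159 at 240 min, then 263 at 600 and 315 at 720 min. CTH, which makes cysteine, held (9.95, 106, 122 and 98.3 CPM at the 4 times; edgeR log2 change from 240 min 0.05, SE 0.24, adjusted p = 0.903). The transporter SLC7A11, which imports cystine, measured 540.1, 730.3, 1087 and 975 CPM at the 4 times (edgeR log2 change from 240 min 0.5, SE 0.22, adjusted p = 0.109).

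Of the 20 cytosolic tRNA synthetase genes, 4 rose by the edgeR test and 0 fell, where 7.75% of all genes rose. By the 2-fold rule only WARS was higher in both late libraries. WARS, for tryptophan, went from 272 CPM in the unlit library to 281 at 240 min and was at 587 and 575 in the late libraries. WARS rose by 1.05 on the log2 scale (SE 0.22, edgeR adjusted p = 0.000849). SARS, for serine, was at 205 CPM before light, 244 at 240 min, 421 by 600 min and 479.5 by 720 min. SARS rose by 0.89 on the log2 scale (SE 0.22, edgeR adjusted p = 0.00479). MARS and FARSB also passed (edgeR adjusted p = 0.0343 and 0.0283). QARS, for glutamine, had 106 CPM at 0 min and 67.4 at 240 min, then 68.5 at 600 and 64.7 at 720 min (edgeR log2 change from 240 min -0.02, SE 0.24, adjusted p = 0.966).

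Among genes below 0 min at 240 min, 7 overshot. HMOX1, haem oxygenase, measured 18.1, 7.35, 54.9 and 115 CPM at the 4 times. HMOX1 rose by 3.52 on the log2 scale (SE 0.40, edgeR adjusted p = 1.3e-06). The late libraries differ, with 720 min the higher, and both lie above that of 0 min, at 3.02 (2.52 to 3.65) and 6.33 (5.33 to 7.55) times its level. AKR1C1, a ketosteroid reductase induced by the factor NRF2, went from 378 CPM in the unlit library to 124 at 240 min and was at 759.9 and 1062 in the late libraries. AKR1C1 rose by 2.87 on the log2 scale (SE 0.26, edgeR adjusted p = 9.74e-11). AKR1C2 was at 498 CPM before light, 177 at 240 min, 935 by 600 min and 1259 by 720 min; it is nearly identical to AKR1C1 in sequence, and the treatment of reads matching both is unknown here. MTHFD2L, a mitochondrial folate enzyme, had 18.7 CPM at 0 min and 9 at 240 min, then 34.5 at 600 and 43.8 at 720 min. SEMA7A and HLA-DRA, also in this class, had at most 70 counts in any library. CHST1, a sulfotransferase, lay just short of this class. It measured 26.2, 6.69, 50.2 and 52.4 CPM at the 4 times, and it counts as returned although both late levels are close to 2-fold above 0 min.

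Targets of NRF2, the factor of the oxidative stress response, rose in part. All 17 listed genes were examined, 7 rose by the edgeR test and 0 fell, and 4 were 2-fold higher in both late libraries. Of all genes examined, 7.75% rose and 2.75% were 2-fold higher. Against 0 min the list's median was -0.44 on the log2 scale at 240 min, then 0.34 at 600 and 0.31 at 720 min. SRXN1, which repairs oxidised peroxiredoxins, went from 297 CPM in the unlit library to 163 at 240 min and was at 560.3 and 591 in the late libraries. SRXN1 rose by 1.82 on the log2 scale (SE 0.23, edgeR adjusted p = 2.49e-07). GCLM, the regulatory subunit of glutathione synthesis, was at 109 CPM before light, 95.3 at 240 min, 220.3 by 600 min and 219 by 720 min. GCLM rose by 1.21 on the log2 scale (SE 0.24, edgeR adjusted p = 0.000335). OSGIN1 had 46.8 CPM at 0 min and 33 at 240 min, then 89.2 at 600 and 141 at 720 min. OSGIN1 rose by 1.8 on the log2 scale (SE 0.28, edgeR adjusted p = 1.11e-05). NQO1 measured 1371, 1010.0, 1338 and 1447 CPM at the 4 times, but it is 1 of 5 listed genes so abundant that the UMI correction makes their levels imprecise.

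Genes that had been low at 240 min and returned include CBX6, a Polycomb protein, which went from 73.1 CPM in the unlit library to 16.9 at 240 min and was at 59.4 and 90.3 in the late libraries. CBX6 rose by 2.15 on the log2 scale (SE 0.30, edgeR adjusted p = 1.11e-06). ZC3HAV1, the antiviral zinc finger protein ZAP, was at 203 CPM before light, 59.5 at 240 min, 157 by 600 min and 163 by 720 min. ZC3HAV1 rose by 1.43 on the log2 scale (SE 0.24, edgeR adjusted p = 4.59e-05). Of 18 p53 targets, 6 rose by the edgeR test and 1 fell, where 7.75% of all genes rose and 10.3% fell. Without the one that a late library alone let in, 5 of 17 rose. PHLDA3, an inhibitor of AKT, had 71.4 CPM at 0 min and 25.1 at 240 min, then 65 at 600 and 82.9 at 720 min. PHLDA3 rose by 1.55 on the log2 scale (SE 0.28, edgeR adjusted p = 7.05e-05). BAX, a mitochondrial death effector, measured 22.5, 9.22, 20.1 and 37.2 CPM at the 4 times. BAX rose by 1.63 on the log2 scale (SE 0.34, edgeR adjusted p = 0.000719), and CDKN1A, the cell cycle inhibitor p21, went from 261 CPM in the unlit library to 139.9 at 240 min and was at 359 and 393 in the late libraries. CDKN1A rose by 1.43 on the log2 scale (SE 0.23, edgeR adjusted p = 1.81e-05). CDKN1A was within 2-fold of 0 min at 240 min and above 0 min late, whereas BAX and PHLDA3 had been more than 2-fold below it at 240 min and were placed as returned. GADD45A, which is shared with the ISR, was at 276 CPM before light, 1115 at 240 min, 1038 by 600 min and 991 by 720 min (edgeR log2 change from 240 min -0.14, SE 0.21, adjusted p = 0.698).

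Chaperone genes of the endoplasmic reticulum had a median below 0 min at 240 min. Of 20 genes for chaperones and degradation in the endoplasmic reticulum, 5 rose and 0 fell by the edgeR test, where 7.75% of all genes rose and 10.3% fell. The list's median log2 ratio to 0 min went from -0.41 at 240 min to -0.11 and -0.09. HSPA5, the chaperone BiP, had 708 CPM at 0 min and 377 at 240 min, then 803 at 600 and 964 at 720 min. HSPA5 rose by 1.23 on the log2 scale (SE 0.23, edgeR adjusted p = 0.000174). DNAJB9, its cochaperone, measured 35.8, 39.6, 103 and 106 CPM at the 4 times. DNAJB9 rose by 1.4 on the log2 scale (SE 0.26, edgeR adjusted p = 0.000151). HERPUD1 and XBP1, known targets of the ISR and the unfolded protein response, did not pass the test. HERPUD1 went from 123 CPM in the unlit library to 286 at 240 min and was at 297 and 305 in the late libraries, and XBP1 was at 43.8 CPM before light, 90.9 at 240 min, 119.8 by 600 min and 121 by 720 min, so both stayed above the 0 min level. Of 18 cytosolic heat shock genes, 3 rose and 1 fell, where 7.75% of all genes rose and 10.3% fell. HSPA1B had 47.8 CPM at 0 min and 6.91 at 240 min, then 18.4 at 600 and 34.6 at 720 min. HSPA1B rose by 1.93 on the log2 scale (SE 0.35, edgeR adjusted p = 0.000123); its copy HSPA1A measured 61.6, 12.3, 22.6 and 27.5 CPM at the 4 times, and reads of these 2 near-identical genes cannot be assigned with certainty. HSPH1, a nucleotide exchange factor, went from 373 CPM in the unlit library to 347 at 240 min and was at 208 and 179 in the late libraries. HSPH1 fell by 0.84 on the log2 scale (SE 0.21, edgeR adjusted p = 0.00453).

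Other genes that were low at 240 min were lower still or stayed low. METTL7A, a methyltransferase of lipid droplets, was at 47.9 CPM before light, 12.8 at 240 min, 2.97 by 600 min and 1.73 by 720 min. METTL7A fell by 2.42 on the log2 scale (SE 0.36, edgeR adjusted p = 3.67e-06). Its 600 and 720 min libraries held 26 and 13 counts, against 409 at 0 min. INSIG1, a sensor that restrains sterol synthesis, had 29.98 CPM at 0 min and 13.6 at 240 min, then 7.87 at 600 and 5.59 at 720 min. INSIG1 fell by 1.01 on the log2 scale (SE 0.32, edgeR adjusted p = 0.0262). Of 20 sterol genes examined, 3 fell and 0 rose, where 10.3% of all genes fell. Among the 3 was STARD4, a sterol carrier, which fell by 1.24 on the log2 scale (SE 0.27, edgeR adjusted p = 0.000995). HMGCS1, an early enzyme of the pathway, measured 57.5, 48.8, 30.4 and 34.1 CPM at the 4 times (edgeR log2 change from 240 min -0.6, SE 0.26, adjusted p = 0.096). TMEM100, STC1 and METTL7B were further below 0 min late than at 240 min but did not pass the test (edgeR adjusted p = 0.0867, 0.088 and 0.14). Low genes that held include GABRE, a GABA receptor subunit (47.2, 13.2, 17.7 and 15.8 CPM at the 4 times), and F5, coagulation factor V (14.3, 3.51, 4.33 and 4.39 CPM at the 4 times).

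Genes of DNA replication were lower late in some cases only. Of 22 examined, 4 fell and 0 rose by the edgeR test, where 10.3% of all genes fell. The list's median log2 distance from 0 min was -0.36 at 240 min, -0.69 at 600 and -0.71 at 720 min. MCM10, an initiation factor, went from 34.2 CPM in the unlit library to 40.6 at 240 min and was at 17.3 and 16 in the late libraries. MCM10 fell by 1.28 on the log2 scale (SE 0.27, edgeR adjusted p = 0.000733). RRM2, the ribonucleotide reductase subunit, was at 304 CPM before light, 397 at 240 min, 239 by 600 min and 198 by 720 min. RRM2 fell by 0.86 on the log2 scale (SE 0.21, edgeR adjusted p = 0.00386). Of 22 mitosis genes, 2 fell and 0 rose, where 10.3% of all genes fell; CDK1, the mitotic kinase, had 270.2 CPM at 0 min and 249.9 at 240 min, then 188 at 600 and 189 at 720 min (edgeR log2 change from 240 min -0.41, SE 0.21, adjusted p = 0.187). Of 19 extracellular matrix genes, 3 fell and 0 rose, against the same 10.3% of all genes. COL3A1, among the 3 that fell, measured 402, 212, 126 and 88.5 CPM at the 4 times.

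A further 199 genes were within 2-fold of 0 min at 240 min and at least 2-fold higher than that in both late libraries. A late library alone let in 62 of them, DNAH10 and HKDC1 included, and these could only be higher. Of the 199, these 62 included, 184 passed the edgeR test, which uses the same counts and is no separate support. In the late mean 126 of the 199 were at least 2-fold above 0 min. DNAH10, an axonemal dynein, went from 3 counts at 240 min to 51 and 49, against 3 at 0 min. MAP2, a microtubule protein of neurons, went from 8.55 CPM in the unlit library to 8.12 at 240 min and was at 50.8 and 65.5 in the late libraries. MAP2 rose by 2.84 on the log2 scale (SE 0.33, edgeR adjusted p = 2.7e-08). CLGN, a chaperone of the testis, was at 3.28 CPM before light, 5.82 at 240 min, 32.3 by 600 min and 38.9 by 720 min. CLGN rose by 2.61 on the log2 scale (SE 0.34, edgeR adjusted p = 3.28e-07). HKDC1, a hexokinase relative, went from 13 counts to 119 and 106, against 12 at 0 min. LONP1, a mitochondrial protease, had 67.8 CPM at 0 min and 57.9 at 240 min, then 124 at 600 and 142 at 720 min. LONP1 rose by 1.2 on the log2 scale (SE 0.25, edgeR adjusted p = 0.000719).

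Genes of the cornified envelope and keratins had the largest late median of the 22 lists. That median includes 5 members that could only be higher, as given below, so the rank is a description only. The list had been drawn up with an earlier view of these libraries, so its direction is no independent evidence. Of 21 listed, 18 are named in the tables and 14 were examined, of which 10 were higher late by the 2-fold rule and 10 by the edgeR test, with 0 lower. Of all genes examined, 2.75% were higher by the rule and 7.75% by the test. A late library alone let in 5 of the 14, which could then only be higher, and of the other 9 the numbers were 5 and 6. SPRR2D, a small proline-rich protein of skin, measured 1.29, 7.35, 251 and 498 CPM at the 4 times. SPRR2D rose by 5.67 on the log2 scale (SE 0.42, edgeR adjusted p = 1.12e-08), and its 720 min level was above that of 600 min. SPRR2A, SPRR2E and SPRR2F had 0 counts at 0 and 240 min and 12, 16 and 19 at 600 min. At 720 min they had 31, 23 and 39 counts, so against a floor of 3 counts in the 240 min library they were at least 12.5-fold, 9.29-fold and 15.8-fold higher. The SPRR2 genes are near-identical copies, so how these reads divide among them, SPRR2D included, is uncertain. ESRP1, an epithelial splicing regulator, went from 67 counts at 240 min to 507 and 433, against 4 at 0 min, and rose by 2.97 on the log2 scale (SE 0.33, edgeR adjusted p = 9.75e-09). KRT81, a hair keratin, went from 16.6 CPM in the unlit library to 20.6 at 240 min and was at 73.5 and 95.4 in the late libraries, and KRT17, a keratin of injured skin, was at 13.8 CPM before light, 55.9 at 240 min, 115 by 600 min and 129.7 by 720 min. As given above, the epithelial markers EPCAM, CDH1 and KRT5 were at 0 to 2 counts in these libraries, while KRT18 had 123 CPM at 0 min and 95.7 at 240 min, then 173 at 600 and 185 at 720 min.

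On the other side, 201 genes had been within 2-fold of 0 min at 240 min and were at least 2-fold lower than that late. The 240 min library alone let in 43, which could only be lower. Of the 201, these 43 included, 181 passed the edgeR test, which uses the same counts and is no separate support. In the late mean 97 of the 201 were at least 2-fold below 0 min. FEZF1, a zinc finger factor of the forebrain, measured 28.3, 50.8, 6.16 and 3.33 CPM at the 4 times. FEZF1 fell by 3.4 on the log2 scale (SE 0.31, edgeR adjusted p = 7.08e-11). C10orf10, a gene induced by fasting and glucocorticoids, went from 17.6 CPM in the unlit library to 25.9 at 240 min and was at 3.77 and 2.79 in the late libraries. C10orf10 fell by 2.97 on the log2 scale (SE 0.33, edgeR adjusted p = 1.01e-08); its highest level of the 7 libraries was 64.4 CPM, at 120 min. PTGER2, a prostaglandin receptor, was at 23.4 CPM before light, 17.1 at 240 min, 2.74 by 600 min and 2.4 by 720 min. PTGER2 fell by 2.73 on the log2 scale (SE 0.35, edgeR adjusted p = 2.11e-07). RGS1, a brake on G protein signalling, had 129 counts at 0 min, 74 at 240 min, then 25 and 5, and fell by 2.15 on the log2 scale (SE 0.45, edgeR adjusted p = 0.000684). GAS1, a growth arrest gene, had 15.1 CPM at 0 min and 25.2 at 240 min, then 6.28 at 600 and 3.33 at 720 min, and ZNF608, a zinc finger gene, measured 21.7, 41.1, 9.13 and 7.85 CPM at the 4 times. All 6 genes were more than 2-fold below the 0 min level in both late libraries, GAS1 and ZNF608 by the least, at 0.415 (0.297 to 0.574) and 0.421 (0.32 to 0.55) times it at 600 min.

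The other lists had few calls. Against the 10.3% and 7.75% of all genes that the edgeR test called lower and higher, it called 0 of 22 ribosome biogenesis genes lower and 2 higher, 0 of 25 respiratory chain genes lower and 2 higher, and 0 of 13 autophagy genes lower and 2 higher. Of 17 glycolysis genes 1 was lower and 2 were higher, and of 13 mitochondrial chaperones and proteases 1 was lower and 2 were higher. Of 23 interferon-stimulated genes 5 were lower, among them IRF1 and DDX58, a sensor of viral RNA that went from 9.25 CPM in the unlit library to 20.3 at 240 min and was at 10.7 and 6.65 in the late libraries, and 1, EIF2AK2, was higher. MAP1LC3B, which marks autophagosomes, was at 257 CPM before light, 354 at 240 min, 681 by 600 min and 696 by 720 min. MAP1LC3B rose by 0.96 on the log2 scale (SE 0.22, edgeR adjusted p = 0.00223). 

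**Figure D5:**
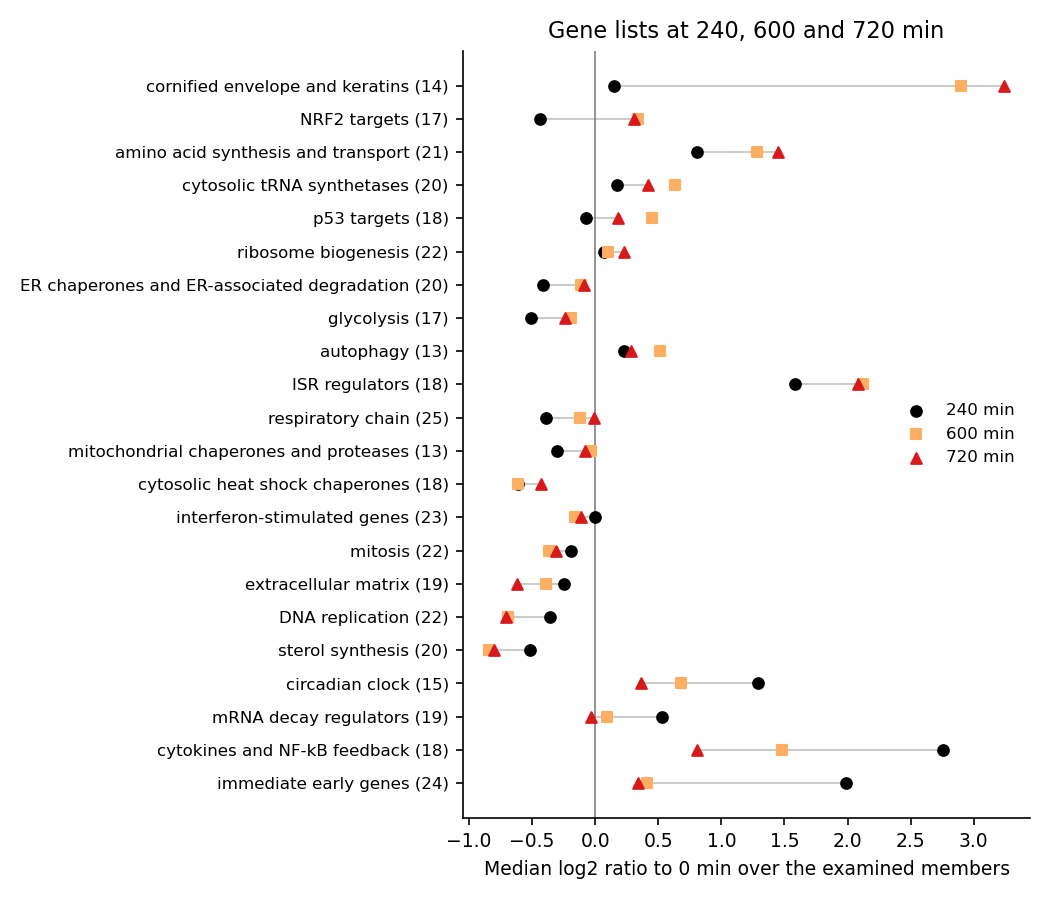
Median log2 ratio to 0 min (x axis) of the examined members of 22 gene lists (y axis, number of members in parentheses) at 240 min (circles), 600 min (squares) and 720 min (triangles). Immediate early genes move from 1.99 to 0.34 between 240 and 720 min, cytokines from 2.76 to 0.81, and ISR regulators from 1.58 to 2.08. The medians include members that only 1 side let in. These are 5 of 24 immediate early genes and 5 of 14 cornified envelope and keratin genes, and 1 gene each of the ISR and p53 lists.

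Zinc finger genes were frequent among the genes that were lower late. Of 426 ZNF genes examined, 62 (14.6%) were at least 2-fold lower in both late libraries and 1 was higher, against 4.27% and 2.75% of all genes; by the edgeR test 117 fell and 8 rose. At 240 min 104 of the 426 were at least 2-fold above 0 min and 8 below, where 10.5% and 6.27% of all genes were. The family's median log2 distance from 0 min was 0.61 at 240 min, 0.05 at 600 and 0.06 at 720 min. ZNF441 had 13.1 CPM at 0 min and 127 at 240 min, then 55.1 at 600 and 27.3 at 720 min. ZNF441 fell by 1.62 on the log2 scale (SE 0.28, edgeR adjusted p = 0.000165), and was lower at 720 min than at 600 min. Many of these genes are alike in sequence, and reads that match several cannot be assigned with certainty. The 13 Krüppel-like factor genes had a median of 1.92 at 240 min, 0.80 at 600 and 0.60 at 720 min, with 5 lower by the 2-fold rule and 0 higher.

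Genomic span was not used to place a gene. The median genomic span in RefSeq was 40.8 kb for the genes above 0 min at 240 min and 16.3 kb for those below, against 30.8 kb for all 12617 genes with a span. Among those above, the median was 37.2 kb for genes that were back at or past 0 min, 43.8 kb part way, 39.8 kb held and 26.4 kb further. Among those below it was 17.4 kb, 14.7 kb, 18.9 kb and 18.8 kb. The spread within each class was wide, for example from 13.6 to 105 kb between the quartiles of the first.

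The collision correction weighed on many abundant genes named above, and some are given here. For ASNS, HSPA5 and WARS the late log2 ratios to 240 min were 1.04, 1.22 and 1.05. On uncorrected UMI counts they were 0.56, 0.70 and 0.71, which is under 2-fold, and on read counts 1.49, 1.68 and 1.31. The late log2 ratio to 240 min was -1.79 for ZFP36L1 but -0.97 on uncorrected UMI counts, 1.78 for GDF15 but 1.04, and 2.85 for AKR1C1 but 1.94; on read counts the values were -2.32, 2.37 and 3.49. A single late library moved others: UBD was at -2.2 with 600 min alone and -4.63 with 720 min alone, RGS1 at -1.44 and -3.21, and CCL20 at -2.3 and -3.9. PDE4B was at -3.1 with 600 min alone, against -3.69.

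The edgeR calls of some genes named above were lost under other tests. In edgeR's fit to all 6 complete libraries the adjusted p was 0.47 for IL24, 0.386 for CXCL2, 0.34 for CBX6, 0.322 for HSPA1B, 0.124 for IL1A and ZNF441, 0.119 for HMOX1, 0.0774 for CRY1, 0.0692 for TEF and 0.065 for BAX. With DESeq2 it was 0.248 for INSIG1, 0.239 for IL1A, 0.228 for ZNF441, 0.211 for CRY1, 0.194 for TEF, 0.184 for DDX58, 0.15 for CXCL3, 0.0823 for IL24, 0.0734 for SMG5, 0.0692 for MARS, 0.0678 for FARSB, 0.0661 for BIRC3, 0.0546 for BHLHE41 and 0.0502 for CXCL2.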

How the data were processed

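RNA of lit H4 cells was counted with a CEL-Seq2 adaptation, 1 library per time, per the labels' protocols. The deposited transcript tables hold expected counts (UMI counts corrected for collisions), which the authors made from the UMI tables: recomputing them for 4096 possible UMIs gave differences of at most 7.4e-10. BWA and hg19 are named in the submitters' processing notes; their versions, the gene annotation and the handling of reads matching several genes are not known here. Only the column headed 4 was used, and the other 95 were not; ERCC spike-ins were dropped. Transcripts were rounded to whole counts, and 77 symbols stood on more than one line. Library sizes were scaled by TMM in edgeR 4.0.16 (R 4.3.3), CPM taken on them, and log2 ratios formed with a prior count of 2. Ratios of 2 libraries carry exact binomial 95% intervals (SciPy 1.17.1), and genes at 0 a floor of 3 counts per library. The edgeR quasi-likelihood test used 4 libraries in 3 groups, 0 min, 240 min and late, with Benjamini-Hochberg adjustment over 12940 genes; DESeq2 1.42.0 was an alternative. Its p-values set the late change against the difference between the late libraries, with the spread shared across genes, and do not measure the spread between cultures. The steps were tested on simulated data. RefSeq spans were matched for 12617 genes.

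The members and the 22 gene lists were chosen with earlier results of these data known. Named genes are the 10 of largest late ratio in each direction, up to 4 of largest shift in each place, 6 late arrivals each way, up to 4 of each list by late ratio, and a set of known ISR, early and inflammatory genes. Genes named outside this rule were chosen after their values were seen, among them all overshooting genes and further members of the lists. Alternatives were read or UMI counts, other scalings, prior counts, filters, thresholds and class borders, another reference time, and leaving out each library. A few genes that the naming rule picks are not reported here.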

Additional observations from a re-analysis of the deposited data

Results flagged for a closer look

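Each count table has 96 barcode columns, of which only the column headed 4 belongs to a sample here. The other 95 columns were not empty, which is why they are listed. Their transcripts came to 0.0557% of the column 4 total in the 0 min library, 0.0533% at 240 min, 0.0666% at 600 min and 0.0599% at 720 min. These counts entered no comparison.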

How the results depend on the processing

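No paired analysis was possible because each time has 1 library and the labels carry no replicate numbers. Of 174 counts of genes recomputed under other settings, 138 stayed within 1.5 times the reported count. Of 1176 recomputed values of 147 named genes, 233 moved, 112 of them with a late library left out. A reversal was looked for only in genes past the 2-fold rule, and there 0 reversed. Genes near no change could switch sign, such as CTH, with a late log2 ratio of 0.04 but -0.03 on read counts. With read counts in place of transcripts, 22 genes overshot from above and 11 from below. At a 3-fold threshold, 138 genes were lower late and 110 higher, and late arrivals numbered 79 higher and 52 lower. At that threshold, of genes above 0 min at 240 min 115 were back at or past 0 min, 3 overshot, 244 were part way and 111 held or further, and of those below the numbers were 39, 0, 74 and 35. With either late library left out, 670 to 1154 genes were lower and 444 to 913 higher than at 240 min. Late arrivals then ranged from 260 to 506 higher and from 284 to 514 lower, genes overshot from above from 12 to 26 and from below from 6 to 16, and low genes back at or past 0 min from 146 to 376. With genes chosen by their level at 120 min, 373 high genes were part way and 119 held or further, and of the low genes 161 were back, 3 overshot, 166 were part way and 65 held or further. With the 60 min library as the reference, of the high genes 197 were back, 27 overshot, 160 were part way and 184 held or further, and of the low genes 130 were part way and 79 held or further. DESeq2 called 441 genes lower and 323 higher, 764 of them shared with edgeR's 2341, and edgeR on the 6 complete libraries called 668 higher, against 1003. The causes of these moves were not tested. Scaling by library totals alone moved the median late ratio of all genes by -0.077 on the log2 scale. The edgeR test on 4 libraries cannot leave out a late one, since no residual degree of freedom is left; on the 6 complete libraries this was not run, and without the 240 min library there is no comparison. With 1 library per time, counting error limits genes of under about 20 counts, and the spread between cultures is unknown.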

Other observations

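Some families were picked after their values were seen, so their counts are descriptions. All 8 SPANX genes examined, a family of near-identical testis antigens on the X chromosome, were at least 2-fold higher in both late libraries than at 240 min, with log2 ratios of 1.44 to 2.13. How reads shared between these copies were assigned is uncertain. Of 7 AKR1 genes, the aldo-keto reductases, 5 were higher by the same rule, with a median log2 ratio of 1.84, and of 3 BEX genes 2 were higher. The 2-fold rule called 2.75% of all genes higher late and 4.27% lower, and the edgeR test called 7.75% higher and 10.3% lower. Of 115 ribosomal protein genes, 3 were 2-fold higher and 0 lower, and by the edgeR test 16 rose and 1 fell. Their median log2 distance from 0 min was -0.33 at 240 min, then -0.05 and 0.16. Of 47 NDUF genes, subunits and assembly factors of respiratory complex I, 10 rose and 0 fell by that test. Of 48 PSM genes, which encode the proteasome, 6 rose and 0 fell.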
